A study of Mus musculus with 20 samples.

Results

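The genes described here are 37 genes of DNA replication and of the passage from G1 into S phase, chosen by name from the 24391 genes counted in each sample. They encode the replicative helicase and the factors that load it, the helicase activators, the polymerases with their clamp and fork partners, enzymes of nucleotide supply and uracil removal, histone and chromatin assembly factors, and the E2F and cyclin E regulators of S phase entry. All 37 gene symbols were found, and all 37 passed the filter on low counts in every comparison.

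Before S phase, Cdc6 and Cdt1 load the ring of Mcm2 to Mcm7 onto replication origins, and kinases with Cdc45 and the GINS complex then turn the ring into an active helicase. Cyclin E with its kinase releases E2F factors from the retinoblastoma proteins, and E2F factors bind the promoters of most of these genes and raise their transcription as cells leave G1. In early T cell development, Notch signalling goes with proliferation, and its intracellular domain (NICD) acts in the nucleus with the DNA-binding protein RBPJ. H2A.Z is a variant of histone H2A found at promoters and encoded in the mouse by H2afz and H2afv.

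RNA-seq was made from 20 samples of E2-10HA, a mouse T cell hybridoma, which is a fusion of a T cell with a tumour line and so a cycling line rather than a resting T cell. The study asked how expression changed with NICD and with loss of H2A.Z. H2A.Z guide samples (n = 6) carried lentiCRISPRv2 with guide RNAs against H2afv and H2afz, and CRISPR control samples (n = 6) carried the empty lentiCRISPRv2 vector, both under puromycin. NICD-ER samples carried pMIGRI Flag-NICD-ER IRES GFP, were selected by sorting, and received for 24 hours 4-hydroxytamoxifen (4-OHT), the ligand of the estrogen receptor part (n = 2), or ethanol (EtOH, n = 2). BioNICD samples carried the biotin ligase BirA (pLXSP-BirA) with biotin-tagged NICD and GFP, wild type (n = 2) or a form labelled DEP mutant (n = 2), and were selected with histidinol and sorting. All 6 guide titles carry the same number, so the guide samples are treated as 1 line. Nothing in the labels ties replicates to cultures of their own, so the p-values describe only sample-to-sample spread, which may be technical. In 6 of the 8 CRISPR samples numbered from 3 upwards the free-text description names another group than the title, while the plasmid field matches the title, and the title was used. CRISPR replicates 1 and 2 (set 1) and 3 to 6 (set 2) were taken as separate submission sets, each with both groups. The labels do not name these sets. They were inferred from the treatment field of the labels and match the folders in the headers of the counts.

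Total counts ran from 10704131 to 48238324 per sample, and the 37 genes together held 0.402% to 0.649% of them. In counts scaled to library size (CPM), H2afz stood at 4.57 to 5.70 CPM in guide samples, against 24.7 to 31.0 CPM in controls, and H2afv at 27.4 to 56.9 CPM, against 117 to 149 CPM in controls. The Notch target Dtx1 averaged 360.4 ± 0.903 CPM with 4-OHT and 28.2 ± 1.43 CPM with ethanol, and 1625 ± 19.4 CPM with wild-type BioNICD and 1.72 ± 0.163 CPM with DEP (SD, n = 2 each). CRISPR controls averaged 0.211 CPM. Hes1, another target, averaged 81.0 CPM with 4-OHT, 25.8 with ethanol, 73.0 with wild-type BioNICD, 5.62 with DEP and 1.49 in CRISPR controls. For both targets, ethanol samples thus stood above DEP samples and CRISPR controls. Of 14 T cell markers, Cd3e, Cd3d, Cd3g, Lck, Zap70, Lat, Cd28, Thy1 and Ptprc were present in every group, and Cd5, Cd8a and Cd8b1 were at or near 0. The other markers, Cd247 and Cd4, differed between the CRISPR groups. Cd247 averaged 19.1 CPM in guide samples and 0.085 CPM in controls, and Cd4 108.5 and 5.12 CPM. In the NICD groups Cd247 averaged 0.542 to 6.55 CPM and Cd4 1.68 to 4.38 CPM. B cell markers summed to at most 0.521 CPM, and erythroid markers to at most 2.82 CPM. Guide replicate 1 held 42.5 CPM and control replicate 1 held 35.0 CPM summed over Col1a1, Col1a2, Col3a1, Dcn and Pdgfra, genes of fibroblasts, against at most 0.285 CPM in the other 18 samples. Guide replicates 5 and 6 and control replicate 6 held 6.73% to 7.67% of their counts in the ribosomal precursor Rn45s, against 1.84% to 4.53% in the rest. In bulk RNA, fewer cells in S phase and less RNA per cell cannot be told apart.

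Promoter sequence is shown first because E2F factors act on these genes through their promoters. RefSeq's promoter table for the mouse build GRCm38, with 250 bases before and 50 after each transcription start, held 35 windows of 30 of the genes. Mcm4, Gins1, Gins2, Pole, Rfc2, Tipin and Ccne2 have no window in it. An E2F motif, any of TTTCCCGC, TTTCGCGC, TTTGCCGC or TTTGGCGC on either strand, was present in 12 of the 35 windows (34.3%), against 744 of all 32851 windows in the table (2.26%). Matches can overlap, as both strands of 1 site can match. A CCAAT box was present in 57.1% of the windows of these genes and in 37.4% of all windows, and the GC box GGGCGG in 71.4% and 35.7%. The RBPJ motif GTGGGAA was present in 8.57% of the windows of these genes and in 6.38% of all windows.

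The 12 windows hold 18 E2F matches in all. For each, the stretch of 28 bases around its first match is printed on the gene's own strand, 5′ to 3′, with matches in capitals, so that the sites can be compared between genes.
Mcm3 (GRCm38 chr1:20820276-20820303, minus strand): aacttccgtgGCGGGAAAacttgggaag
Mcm5 (GRCm38 chr8:75109346-75109373, plus strand): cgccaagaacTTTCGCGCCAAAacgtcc
Mcm6 (GRCm38 chr1:128359798-128359825, minus strand): ggcgtatgctTTTGGCGCGAAAagtgcg
Mcm7 (GRCm38 chr5:138172031-138172058, minus strand): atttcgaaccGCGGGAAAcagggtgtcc
Cdc6 (GRCm38 chr11:98908003-98908030, plus strand): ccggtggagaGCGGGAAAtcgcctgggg
Cdt1 (GRCm38 chr8:122568037-122568064, plus strand): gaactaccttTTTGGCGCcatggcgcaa
Gins3 (GRCm38 chr8:95633508-95633535, plus strand): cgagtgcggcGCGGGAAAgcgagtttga
Pola1 (GRCm38 chrX:93632276-93632303, minus strand): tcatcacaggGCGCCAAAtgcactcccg
Rfc3 (GRCm38 chr5:151651201-151651228, minus strand): cgtcgcacgcTTTCGCGCtcGCGGGAAA
Lig1 (GRCm38 chr7:13278842-13278869, plus strand): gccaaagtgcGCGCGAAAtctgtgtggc
Hells (GRCm38 chr19:38930918-38930945, plus strand): accaccgggtTTTCCCGCgaaagagaag
E2f2 (GRCm38 chr4:136172296-136172323, plus strand): aatttggcggcatatagTTTGGCGCtaa

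In Mcm5, Mcm6 and Rfc3 the stretch holds 2 matches, which overlap in Mcm5 and Mcm6 and stand apart in Rfc3. The same letters, GCGGGAAA on the gene's strand, are read in Mcm3, Mcm7, Cdc6, Gins3 and Rfc3. The other 3 matches, 1 each in the windows of Mcm3, Mcm6 and Mcm7, lie outside the printed stretches. The first match begins before the start in Mcm5, Mcm6, Mcm7, Cdc6, Gins3, Pola1, Rfc3 and Hells, and after it in Mcm3, Cdt1, Lig1 and E2f2, and the second match of Mcm7 begins after the start. A match is a run of letters and was not tested as a binding site.

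For Ung, Tyms, Cdt1 and Rfc3, the genes called in all 3 main comparisons below with the largest summed changes, the 100 bases before the start are printed with E2F matches and GC boxes in capitals.
Ung (GRCm38 chr5:114130335-114130434, plus strand): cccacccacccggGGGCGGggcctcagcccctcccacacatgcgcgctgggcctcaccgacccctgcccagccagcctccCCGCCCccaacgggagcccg
Tyms (GRCm38 chr5:30073626-30073725, minus strand): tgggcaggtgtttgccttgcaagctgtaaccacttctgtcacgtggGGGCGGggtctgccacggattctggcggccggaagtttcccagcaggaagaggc
Cdt1 (GRCm38 chr8:122567915-122568014, plus strand): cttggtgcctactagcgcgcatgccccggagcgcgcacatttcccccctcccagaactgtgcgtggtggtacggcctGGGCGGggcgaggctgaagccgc
Rfc3 (GRCm38 chr5:151651209-151651308, minus strand): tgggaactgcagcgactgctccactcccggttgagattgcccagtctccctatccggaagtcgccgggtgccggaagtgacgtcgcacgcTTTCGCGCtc

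Within these 100 bases, Rfc3 holds an E2F match, and Ung, Tyms and Cdt1 hold GC boxes. Ung and Tyms have no E2F match in their whole windows, and the match of Cdt1 lies after its start.

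Levels between genes are compared per kilobase of exon, as the mean of the 6 group means. Rrm2, the small subunit of ribonucleotide reductase, was highest at 318 CPM per kb, followed by the helicase subunit Mcm6 at 200.4 CPM per kb and the large reductase subunit Rrm1 at 113 CPM per kb. The GINS subunit Gins3 was lowest at 5.51 CPM per kb, below cyclin E2 (Ccne2) at 8.90 and thymidylate synthase (Tyms) at 11.7 CPM per kb. Ccne2 shares 1734 of its 3220 exon bases with Ints8, so its place in this order is uncertain. The CRISPR and NICD lines differ in construct and selection, and CRISPR set 2 also in the inferred submission set, so levels across them are a description. The group mean was highest in CRISPR controls for 20 of the 37 genes, in guide samples for 9 and in NICD-ER with 4-OHT for 8. It was lowest with wild-type BioNICD for 22 genes and with DEP for 8. Summed over the 37 genes, the level was 5583 ± 771 CPM in guide samples and 6307 ± 361 CPM in controls (SD, n = 6 each), 5294 ± 115 CPM with 4-OHT and 4739 ± 3.63 CPM with ethanol, and 3879 ± 13.2 CPM with wild-type BioNICD and 4672 ± 8.27 CPM with DEP (SD, n = 2 each).

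**Figure D1:**
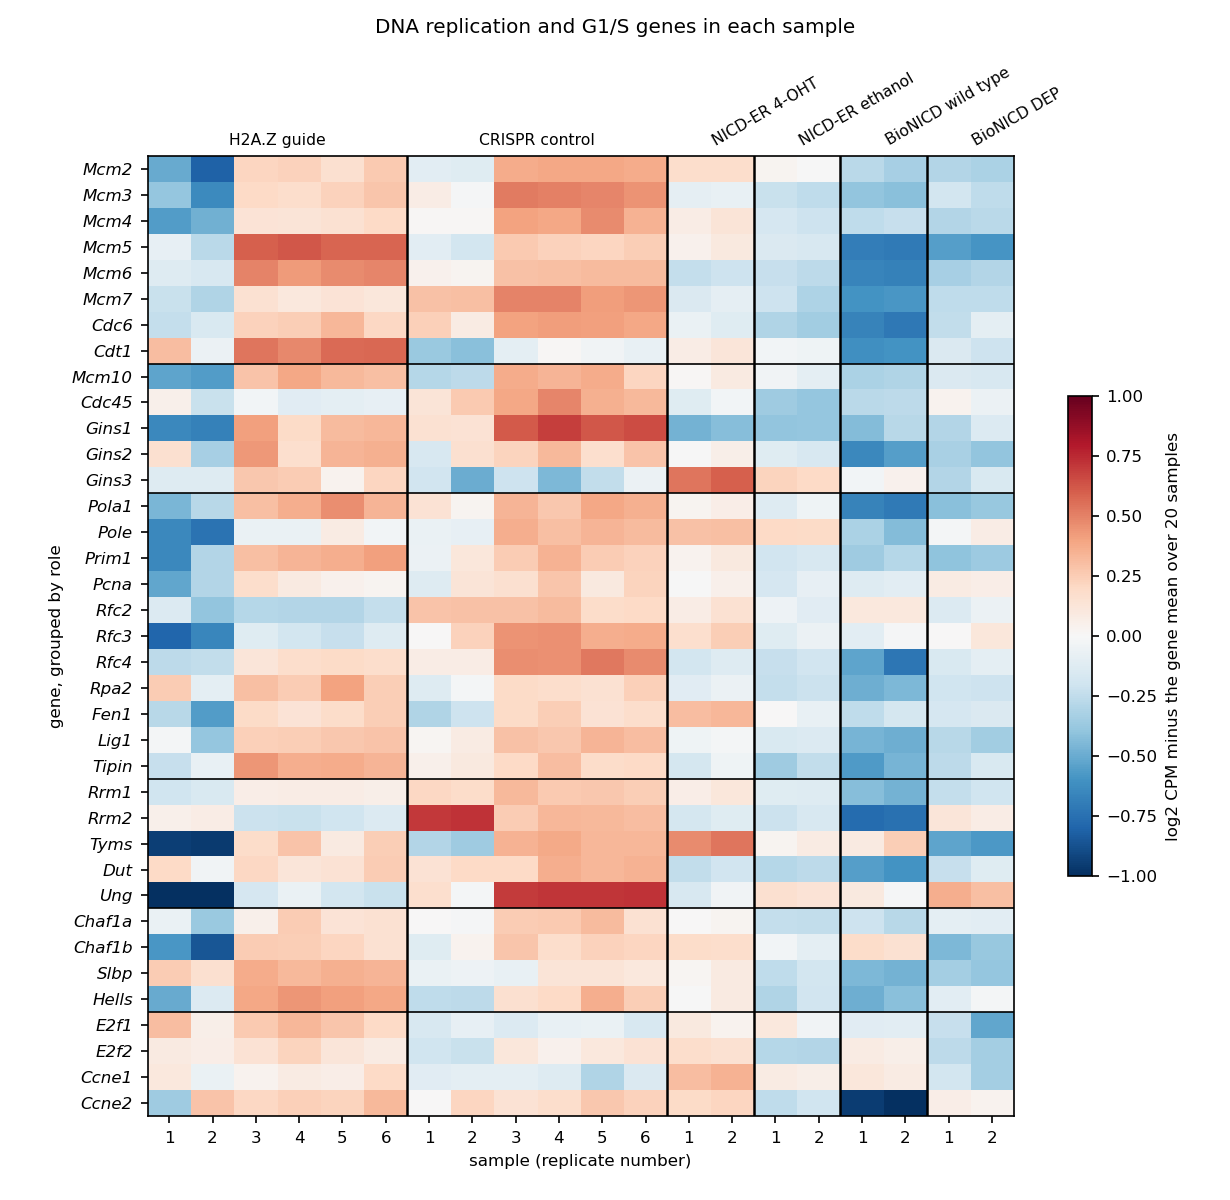
Level of each of the 37 genes (rows, grouped by role) in each of the 20 samples (columns), as log2 CPM minus the gene's mean over all samples. Red is higher and blue is lower, and colours stop at 1 in either direction. Guide replicates 1 and 2 are bluer than guide replicates 3 to 6 for most genes, and the wild-type BioNICD samples are blue for most genes.

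The first comparison asked how the genes differed between H2A.Z guide samples and CRISPR controls. A gene is called higher or lower at an adjusted p under 0.05 in edgeR's quasi-likelihood test with Benjamini-Hochberg adjustment over all genes tested, here with the submission set as a covariate. Of the 37 genes, 18 were called lower and 6 higher, and their median log2 fold change was -0.13. Of all 10662 genes tested, 64.5% were called (31.8% higher and 32.7% lower), with a median of -0.01. The share of the 37 called, 64.9%, is near that background, and the share called lower is 48.6%. In 10 of the 24 called genes (27.0% of all 37) the 2 groups did not overlap, against 33.7% of all genes tested. Changes were small, and Ung was the 1 called gene past 1 on the log2 scale.

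All 5 genes of nucleotide supply and uracil removal were called lower, of which Dut lost its call in 15 of 25 alternative settings. Ung, the glycosylase that removes uracil from DNA, had 6.90, 20.8 and 22.8 CPM as lowest, median and highest guide sample, against 23.6, 38.9 and 39.5 CPM in controls. No guide sample reached the lowest control, and the log2 fold change was -1.10 ± 0.11 (SE; edgeR adjusted p = 2.7e-07). Rrm2 had 619, 644 and 764 CPM in guide samples as lowest, median and highest, against 863, 909.8 and 1195 CPM in controls, also without overlap. Its log2 fold change was -0.56 ± 0.04 (SE; edgeR adjusted p = 3.8e-09). The others of this role were Tyms at -0.29, Rrm1 at -0.27 and Dut, which destroys dUTP, at -0.12. Tyms had 21.9, 46.6 and 51.7 CPM in guide samples as lowest, median and highest, against 33.0, 53.3 and 55.2 CPM in controls, and the ranges overlapped.

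At the fork, 5 of 11 genes were called lower and 0 higher. Of these 5, Rfc2, Rfc3 and Rfc4 encode subunits of replication factor C, which loads the sliding clamp onto DNA. Rfc3 had 32.3, 48.5 and 51.5 CPM as lowest, median and highest guide sample, against 56.1, 72.1 and 77.0 CPM in controls. The groups did not overlap, and the log2 fold change was -0.66 ± 0.06 (SE; edgeR adjusted p = 6.0e-08). Rfc2 had 88.8, 95.7 and 106 CPM in guide samples, against 133, 143 and 145 CPM in controls, without overlap, and changed by -0.54 ± 0.05 on the log2 scale (SE; edgeR adjusted p = 3.3e-08). Rfc4 changed by -0.33 and the catalytic subunit of polymerase epsilon, Pole, by -0.44. The clamp gene Pcna had 79.6, 117 and 129 CPM in guide samples, against 104, 126 and 138 CPM in controls, overlapping, and changed by -0.21 ± 0.06 on the log2 scale (SE; edgeR adjusted p = 0.010). The polymerase alpha gene Pola1 (-0.13), the primase gene Prim1 (-0.10), the flap endonuclease Fen1 (-0.06), the ligase Lig1 (-0.11), the fork protection factor Tipin (0.03) and the single-strand binding subunit Rpa2 (0.12) did not pass.

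Among helicase and licensing genes, 5 of 8 were called lower and 2 higher. Mcm7 (-0.41), Mcm3 (-0.36), Mcm4 (-0.35) and Mcm2 (-0.29) were lower, while Mcm6 did not pass (0.04). Relative to the median of its chromosome, Mcm7 stood at -0.08, against -0.35 for Mcm3, -0.28 for Mcm4 and -0.23 for Mcm2. Mcm5 was called higher (0.22), but stood at -0.03 in set 1 and at -0.28 relative to the median of its chromosome. Mcm2 had 133, 265 and 278 CPM in guide samples as lowest, median and highest, against 214, 301 and 305 CPM in controls. Its ranges overlapped, and both set 1 guide samples were below every other sample. Cdc6, the loader, had 53.4, 73.5 and 79.2 CPM in guide samples, against 66.8, 82.9 and 84.1 CPM in controls, and fell by 0.22 ± 0.05 on the log2 scale (SE; edgeR adjusted p = 0.00072). Its partner Cdt1 went the other way, with 67.0, 98.8 and 103 CPM in guide samples, against 52.1, 65.6 and 70.2 CPM in controls. Only guide replicate 2 overlapped the controls, and the log2 fold change of Cdt1 was 0.56 ± 0.05 (SE; edgeR adjusted p = 1.9e-07), the largest rise among the 37 genes, though 0.05 above the median of its chromosome.

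Of the 5 helicase activators, Gins1 and Cdc45 were called lower and Gins3 higher. Gins1 had 15.9, 30.3 and 33.8 CPM as lowest, median and highest guide sample, against 28.0, 39.0 and 41.0 CPM in controls, and the ranges overlapped because all 4 set 2 guide samples lay above both set 1 controls. It changed by -0.48 ± 0.07 on the log2 scale (SE; edgeR adjusted p = 3.6e-05). Cdc45 had 77.3, 84.9 and 93.3 CPM in guide samples, against 98.7, 114 and 127 CPM in controls, without overlap, and changed by -0.41. Its partner Gins3 changed by 0.36 and stood at -0.15 relative to the median of its chromosome, and neither the GINS subunit Gins2 (0.02) nor Mcm10, which helps to activate the helicase, passed (-0.09). In chromatin assembly, the histone mRNA binding protein Slbp was higher (0.26) and Chaf1a, the large subunit of the histone chaperone CAF-1, was lower (-0.14, a call lost in 14 of 25 alternative settings), while Chaf1b, its middle subunit (-0.22), and the chromatin remodeller Hells (0.09) did not pass.

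The regulators were higher or did not pass. E2f1, an activating E2F factor, had 45.4, 52.6 and 55.0 CPM in guide samples, against 38.9, 40.4 and 41.6 CPM in controls. All 6 guide samples exceeded all controls, and the log2 fold change was 0.35 ± 0.05 (SE; edgeR adjusted p = 2.0e-05). Cyclin E1 (Ccne1) had 45.6, 50.3 and 55.0 CPM in guide samples, against 38.9, 43.9 and 44.6 CPM in controls, without overlap, and changed by 0.21 ± 0.05 (SE; edgeR adjusted p = 0.0030). Cyclin E2 (Ccne2) had 23.2, 34.9 and 37.2 CPM in guide samples, against 29.7, 34.0 and 35.8 CPM in controls, and did not pass (-0.01), and E2f2 narrowly missed the threshold (0.11; edgeR adjusted p = 0.051).

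**Figure D2:**
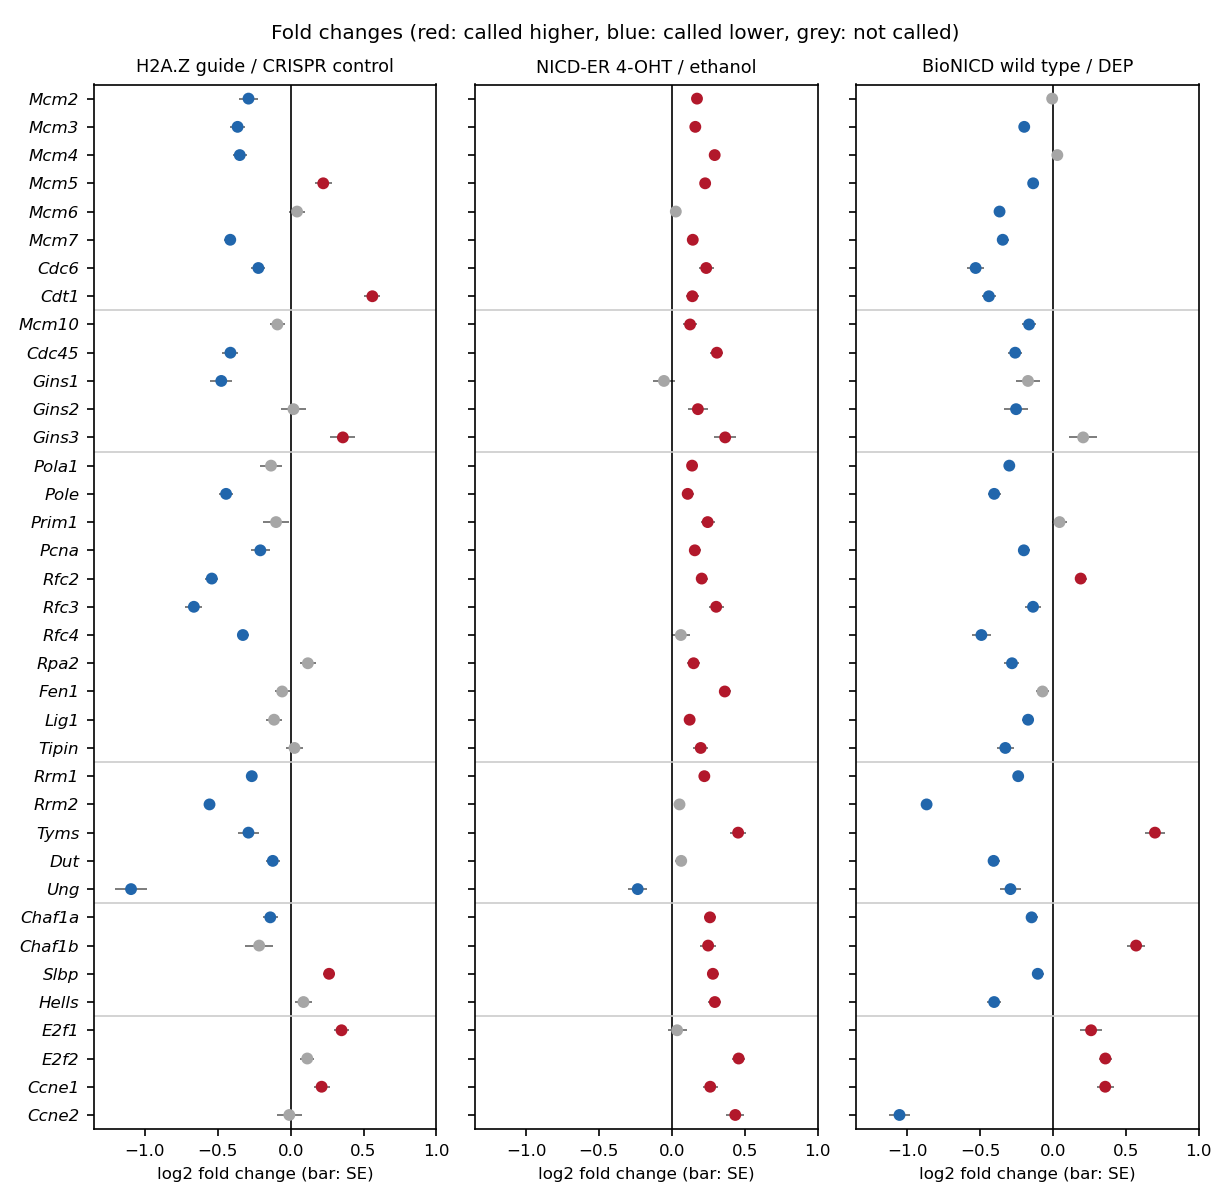
Log2 fold change (x axis) of each of the 37 genes (y axis, grouped by role) in the 3 comparisons, with bars of 1 SE. Red points are called higher, blue called lower and grey not called. In the H2A.Z panel 18 points are blue, in the NICD-ER panel 30 are red, and in the BioNICD panel 25 are blue.

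Chromosome moved with the H2A.Z result. The median log2 fold change was -0.33 over the 682 genes tested on chromosome 5, with 26.1% above 0, and 0.51 over the 572 genes on chromosome 8, with 91.6% above 0, while the medians of the other chromosomes lay between -0.08 and 0.11. Chromosome 5 carries Mcm7, Pole, Rfc2, Rfc3, Tyms, Ung and Slbp, of which 6 were called lower and Slbp higher. Chromosome 8 carries Mcm5, Cdt1, Gins2 and Gins3, of which 3 were called higher. Of the 26 genes on other chromosomes, 12 were called lower and 2 higher, with a median of -0.13. Set against the median of their own chromosome, Mcm5 stood at -0.28, Gins3 at -0.15 and Tyms at 0.04, each with the sign turned round. Mcm7 stood at -0.08, Pole at -0.11, Rfc2 at -0.21, Rfc3 at -0.33 and Ung at -0.76. Cdt1 stood at 0.05 and Slbp at 0.59. The part of the chromosome in these values was not tested.

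**Figure D3:**
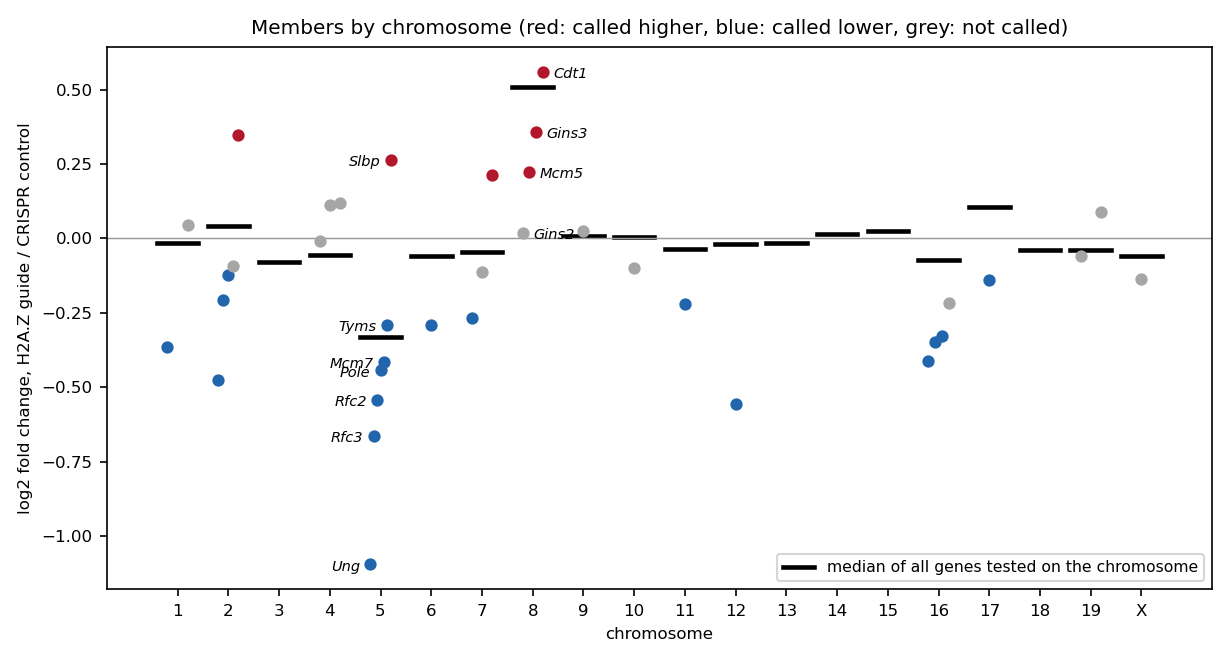
Log2 fold change, H2A.Z guide against CRISPR control (y axis), of the 37 genes by chromosome (x axis). Black bars are the medians of all genes tested on the chromosome, which stand at -0.33 on chromosome 5 and 0.51 on chromosome 8.

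The 2 submission sets differed. Set 1 guide samples summed to 4593 CPM over the 37 genes and set 1 controls to 5843 CPM (n = 2 each). Set 2 guide samples summed to 6079 CPM and set 2 controls to 6538 CPM (n = 4 each). The median log2 fold change was -0.28 in set 1 and -0.05 in set 2, and 30 genes were below 0 in set 1 and 22 in set 2. Over all 37 genes, called or not, 29 had the same sign in both sets. Of the 24 called genes 23 did, and the exception was Mcm5 with -0.03 in set 1 and 0.35 in set 2. These 24 were called on both sets together, which favours genes with the same sign, so their count does not measure agreement between sets. A test of the difference itself (set 2 minus set 1) called 14 genes higher and 1 lower, which is 40.5% of the 37, against 15.7% of all genes tested (8.19% higher and 7.49% lower). Ung changed by -1.69 in set 1 and -0.88 in set 2, Chaf1b by -0.68 and -0.01, and Prim1 by -0.48 and 0.07. These 3 had the largest differences, at 0.81 ± 0.14, 0.67 ± 0.11 and 0.55 ± 0.12 (SE; edgeR adjusted p = 0.0013, 0.0013 and 0.0059). E2f2 was the gene with the opposite difference, at 0.28 in set 1 and 0.03 in set 2.

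**Figure D4:**
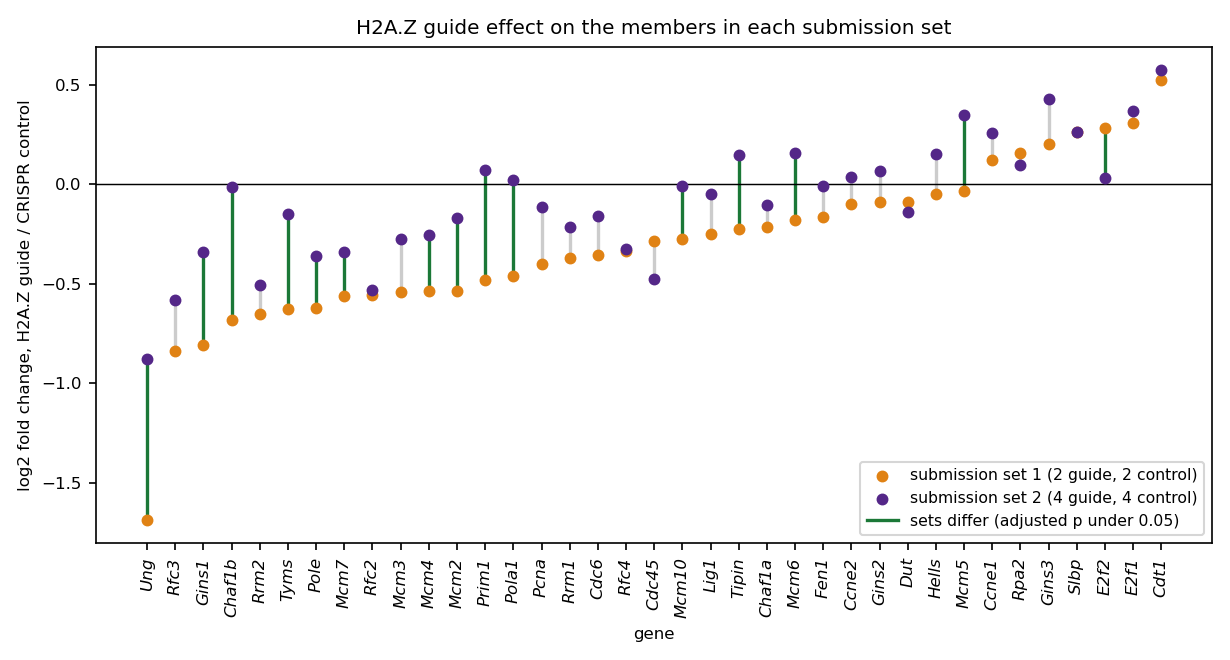
Log2 fold change, H2A.Z guide against CRISPR control, of the 37 genes (x axis, ordered by set 1) in set 1 (orange) and set 2 (purple). Green lines join genes whose 2 values differ by edgeR's test, and for 14 of those 15 genes set 2 lies above set 1.

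Set 1 alone called 14 genes lower and 1 higher, 40.5% of the 37 against 27.6% of all genes tested. Set 2 alone called 18 lower and 10 higher, 75.7% of the 37 against 72.1% of all genes. The count of 15 genes whose effect differed between sets was 24 when guide replicate 2 was left out and 9 when control replicate 1 was, while the share of all genes called was 37.9% and 7.93%. It was 5 with the 3 Rn45s-rich samples left out, and 19 with guide replicate 1 and control replicate 1 left out together, the samples with fibroblast genes, while 4.15% and 18.8% of all genes were called. Without that pair, 26 genes were called in the H2A.Z comparison (70.3%, against 68.8% of all genes).

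Of related genes outside the 37, mitotic genes gave 16 called lower and 3 higher of 24, and fork genes 12 lower and 5 higher of 24. Among the mitotic genes Cdc20, the activator of the anaphase complex, changed by -0.93, the spindle factor Tpx2 by -0.45 and the proliferation marker Mki67 by 0.44. Fork genes included the ribonuclease subunit Rnaseh2a (0.73), the polymerase epsilon subunit Pole3 (-0.69) and the clamp loader subunit Rfc1 (-0.56). Licensing genes gave 6 lower and 4 higher of 17, with the S phase kinase Cdc7 at -0.46 and the origin subunits Orc6 at 0.38 and Orc3 at -0.38. Nucleotide supply genes gave 4 lower and 4 higher of 17, with the dNTP hydrolase Samhd1 at 0.84, the deoxycytidine kinase Dck at -0.74 and Dhodh, of pyrimidine synthesis, at 0.48. Checkpoint genes gave 6 lower and 4 higher of 16, with the kinase Wee1 at 0.45, the mismatch repair factor Msh6 at -0.41 and the kinase Chek1 at -0.39.

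Genes of the E2F, retinoblastoma and S phase kinase group gave 9 lower and 7 higher of 19. E2f6, a repressing E2F factor, had 1239 counts over the 6 guide samples and 1 count over the 6 controls, a ratio of 1084 with a 95% counting interval of 194 to 42852. It averaged 16.0 CPM with 4-OHT and 15.4 CPM with ethanol, and 7.60 CPM with wild-type BioNICD and 12.4 CPM with DEP, so the CRISPR controls, not the guide samples, stood apart from the other lines. Its relation to the 37 genes was not tested. The retinoblastoma relative Rbl2 changed by 1.42 and the E2F partner Tfdp2 by 1.23.

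The NICD-ER comparison asked what 24 hours of 4-OHT did in cells with NICD-ER. Of the 37 genes, 30 were called higher with 4-OHT than with ethanol (81.1%) and 1 lower, and their median log2 fold change was 0.20. Of all 12499 genes tested, 36.2% were called (19% higher and 17.2% lower), with a median of 0.00. The changes were small, and 0 of the 31 called genes reached 0.5 on the log2 scale. In 34 of the 37 genes the 2 groups did not overlap, and so it was in 66.4% of all genes tested. With 2 samples a group, all 8 NICD samples shared 1 estimate of the spread. The groups were not equally close. The 2 ethanol samples differed by a mean chi-square per gene of 19.9, over all genes with enough counts. It was 4.26 between the 4-OHT samples, 2.66 between the wild-type BioNICD samples and 3.20 between the DEP samples.

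Regulators of S phase entry stood among the largest changes. E2f2, an activating E2F factor, had 85.6 and 84.2 CPM with 4-OHT, against 62.2 and 61.9 CPM with ethanol. The log2 fold change was 0.46 ± 0.04 (SE; edgeR adjusted p = 9.5e-09). Ccne2 had 33.8 and 34.4 CPM with 4-OHT, against 24.9 and 25.8 CPM with ethanol, a change of 0.44 ± 0.06 (SE; edgeR adjusted p = 5.0e-06). Both genes were higher in each 4-OHT sample than in either ethanol sample. Ccne1 had 59.0 and 60.7 CPM with 4-OHT, against 50.6 and 49.7 CPM with ethanol, and changed by 0.26. E2f1 had 46.7 and 44.6 CPM with 4-OHT, against 46.9 and 42.6 CPM with ethanol, overlapped and did not pass (0.04).

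Licensing genes were called higher in 7 of 8 cases. Mcm4 (0.29) had the largest change among them. Cdc6 had 60.2 and 58.0 CPM with 4-OHT, against 51.3 and 49.6 CPM with ethanol, a change of 0.24 ± 0.05 (SE; edgeR adjusted p = 0.00088). Mcm2 had 263 and 264 CPM with 4-OHT, against 238 and 232 CPM with ethanol (0.17). Cdt1 had 73.4 and 75.8 CPM with 4-OHT, against 68.3 and 67.7 CPM with ethanol (0.14). For these 3 genes both 4-OHT samples lay above both ethanol samples. Mcm6 did not pass (0.03). Of the 5 helicase activators, 4 were called higher. Gins3 had 18.1 and 18.9 CPM with 4-OHT, against 14.6 and 14.3 CPM with ethanol, a change of 0.37 ± 0.08 (SE; edgeR adjusted p = 0.00061). Cdc45 had 83.2 and 88.7 CPM with 4-OHT, against 70.6 and 69.0 CPM with ethanol, a change of 0.31 ± 0.04 (SE; edgeR adjusted p = 7.2e-06). Gins1 did not pass (-0.05).

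At the fork, 10 of 11 genes were called higher and Rfc4 did not pass (0.06). Fen1, which trims Okazaki fragments, had 112 and 114 CPM with 4-OHT, against 90.4 and 85.8 CPM with ethanol, a change of 0.36 ± 0.04 (SE; edgeR adjusted p = 2.5e-07). Rfc3 had 63.0 and 66.2 CPM with 4-OHT, against 51.5 and 53.8 CPM with ethanol (0.30), and Pcna had 114 and 118 CPM with 4-OHT, against 101 and 108 CPM with ethanol (0.16). In all 3, both 4-OHT samples lay above both ethanol samples. All 4 chromatin assembly genes were called higher, with Hells at 0.30, Slbp at 0.28, Chaf1a at 0.26 and Chaf1b at 0.25. The nucleotide genes split. Tyms had 58.8 and 61.4 CPM with 4-OHT, against 43.2 and 45.0 CPM with ethanol, a change of 0.46 ± 0.06 (SE; edgeR adjusted p = 5.9e-07), and Rrm1 was also called higher (0.22). Ung was the 1 called lower, with 21.3 and 23.3 CPM with 4-OHT, against 26.7 and 26.2 CPM with ethanol, a change of -0.23 ± 0.07 (SE; edgeR adjusted p = 0.0081). Rrm2 (0.05) and Dut (0.06) did not pass.

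Ethanol replicate 1 held 0.010% of its counts in the mitochondrial tRNA ligase gene Lars2 and the other 3 NICD-ER samples 0.231% to 0.309%, and without it 24 of the 37 genes were called (64.9%, against 27.7% of all genes). In a model of all 20 samples, with a biological coefficient of variation of 11.2% against 3.58% over the 8 NICD samples, 1 of the 37 was called (2.70%), below the 7.34% of all genes. That model had no term for submission set, so its spread takes in the difference between the CRISPR sets. In the H2A.Z comparison the coefficient was 7.95% with the set term and 13.3% without it. For a change beyond 1.2-fold (edgeR's glmTreat), 4 of the 37 were called (10.8%), near the 9.61% of all genes.

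Mitotic genes outside the 37 gave 21 higher and 0 lower of 24 with 4-OHT, led by the kinetochore genes Nuf2 (0.41) and Cenpe (0.35) and the midzone factor Prc1 (0.38). Fork genes gave 13 higher and 2 lower of 24, with the clamp loader subunit Dscc1 at 0.74, the nuclease Dna2 at 0.43 and the checkpoint mediator Clspn at 0.39. Licensing genes gave 8 higher and 1 lower of 17, with the kinase Cdc7 at 0.37, its partner Dbf4 at 0.31 and the firing factor Ticrr at 0.25. In the E2F and retinoblastoma group 10 were higher and 2 lower of 19, with Rbl2 at -0.51, E2f8 at 0.45 and cyclin A2 (Ccna2) at 0.32. Checkpoint genes gave 7 higher and 0 lower of 16, with the recombination genes Brca1 at 0.34 and Brca2 at 0.32. Nucleotide supply genes went the other way, with 4 higher and 8 lower of 17, among them Samhd1 at 0.72, Dck at 0.45 and Shmt1, of folate metabolism, at -0.36.

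The BioNICD comparison asked how wild-type NICD differed from the DEP mutant. Here 25 of the 37 genes were called lower with the wild type (67.6%) and 6 higher, with a median log2 fold change of -0.20. Of all 12499 genes tested, 65.6% were called (32% higher and 33.6% lower), with a median of -0.02. In 35 of the 37 genes the groups did not overlap, and so it was in 80.7% of all genes tested.

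The regulators gave changes in both directions. Ccne2 had 15.4 and 14.1 CPM with the wild type, against 31.1 and 30.4 CPM with DEP, the largest change among the 37 genes. It changed by -1.05 ± 0.07 on the log2 scale (SE; edgeR adjusted p = 9.5e-12). Ccne1 had 51.8 and 50.5 CPM with the wild type, against 42.0 and 37.7 CPM with DEP, a change of 0.36 ± 0.06 (SE; edgeR adjusted p = 8.7e-06). The 2 cyclin E genes thus moved in opposite directions, with no overlap of groups in either. E2f2 had 80.1 and 78.8 CPM with the wild type, against 63.3 and 60.1 CPM with DEP (0.36), and E2f1 had 40.4 and 40.5 CPM, against 37.1 and 30.4 CPM with DEP (0.26). The E2f1 change was 0.40 without DEP replicate 1 and 0.11, no longer called, without DEP replicate 2.

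Nucleotide genes held the next changes. Rrm2 had 424 and 432 CPM with the wild type, against 787 and 764 CPM with DEP, a change of -0.87 ± 0.04 (SE; edgeR adjusted p = 2.9e-15). Tyms had 45.0 and 50.2 CPM with the wild type, against 29.4 and 28.5 CPM with DEP, a change of 0.70 ± 0.07 (SE; edgeR adjusted p = 2.3e-09). The 2 genes, which both serve the supply of DNA precursors, thus moved in opposite directions. Dut changed by -0.41, and Ung had 25.5 and 23.6 CPM with the wild type, against 30.8 and 29.4 CPM with DEP (-0.29). Rrm1 was called lower (-0.24).

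Of the 8 licensing genes, 6 were called lower and 0 higher. Cdc6 had 39.7 and 38.5 CPM with the wild type, against 53.3 and 58.8 CPM with DEP, a change of -0.53 ± 0.06 (SE; edgeR adjusted p = 2.4e-08). Cdt1 had 45.6 and 46.0 CPM with the wild type, against 63.1 and 60.4 CPM with DEP, a change of -0.44 ± 0.05 (SE; edgeR adjusted p = 5.0e-08). Both loaders thus stood lower in each wild-type sample. Mcm6 changed by -0.37 and Mcm7 by -0.34, while Mcm2 had 193 and 185 CPM with the wild type, against 190 and 187 CPM with DEP, and did not pass (-0.01), nor did Mcm4 (0.03). Of the helicase activators, Cdc45 had 75.1 and 75.3 CPM with the wild type, against 92.5 and 86.6 CPM with DEP (-0.26), Gins2 and Mcm10 were also called lower, and Gins1 (-0.17) and Gins3 (0.21) did not pass.

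At the fork, 8 of 11 genes were called lower and 1 higher. Rfc4 had 33.2 and 29.0 CPM with the wild type, against 43.0 and 44.8 CPM with DEP, a change of -0.49 ± 0.07 (SE; edgeR adjusted p = 6.7e-07). Pole changed by -0.40, Tipin by -0.33 and Pola1 by -0.30. Rfc2 was called higher (0.19), and Pcna had 104 and 106 CPM with the wild type, against 121 and 120 CPM with DEP (-0.20). Rfc3 had 52.0 and 55.7 CPM with the wild type, against 56.1 and 60.6 CPM with DEP (-0.14), and was not called without wild-type replicate 1 (-0.07) or without DEP replicate 2 (-0.08). Of the chromatin assembly genes, Chaf1b had 42.1 and 41.3 CPM with the wild type, against 27.2 and 28.6 CPM with DEP, a change of 0.57 ± 0.06 (SE; edgeR adjusted p = 2.5e-08). Its partner Chaf1a was lower (-0.15), as were Hells (-0.40) and Slbp (-0.10, a call lost in 9 of 16 alternative settings), so the 2 CAF-1 subunits moved in opposite directions. Prim1 (0.05) and Fen1 (-0.07) did not pass.

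The fibroblast receptor gene Pdgfrb and the myeloid integrin gene Itgam were high with wild-type BioNICD. The 6 fibroblast markers summed to 113 to 116 CPM with the wild type and 0.119 to 0.282 CPM with DEP, of which Pdgfrb was the 1 above 1 CPM with the wild type, and Col1a2, Col3a1 and Pdgfra were at 0 there. The 7 myeloid markers found summed to 61.8 to 63.2 CPM with the wild type and 0.831 to 0.941 CPM with DEP, of which Itgam was the 1 above 1 CPM, and Elane was at 0. In the model of all 20 samples, 13 of the 37 genes were called (35.1%, against 39.0% of all genes), and for a change beyond 1.2-fold 14 were (37.8%, against 37.9% of all genes).

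Outside the 37, mitotic genes gave 22 lower and 0 higher of 24 with wild-type BioNICD, led by the contractile ring gene Anln (-0.77), the kinetochore gene Cenpf (-0.68) and Cdc20 (-0.67). Checkpoint genes gave 12 lower and 0 higher of 16, with Wee1 at -0.71, Chek1 at -0.55 and Brca1 at -0.54. Fork genes gave 14 lower and 4 higher of 24, with Dscc1 at 1.30, Pole3 at -0.55 and the topoisomerase Top2a at -0.54. Licensing genes gave 11 lower and 2 higher of 17, with the fork factor Donson at 0.50, the helicase Recql4 at -0.46 and Orc1 at -0.45. Nucleotide supply genes gave 12 lower and 1 higher of 17, with Samhd1 at 2.24, the thymidylate kinase Dtymk at -0.73 and Shmt1 at -0.53. The E2F and retinoblastoma group gave 13 lower and 2 higher of 19, with Tfdp2 at -1.12, E2f6 at -0.72 and the mitotic inhibitor Fbxo5 at -0.55.

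Of the 37 genes, 20 were called higher with 4-OHT and lower with wild-type BioNICD, 5 (Rfc2, Tyms, Chaf1b, E2f2 and Ccne1) were higher in both, and Ung was lower in both. These joint patterns were not counted over all genes, of which 19% were called higher with 4-OHT and 33.6% lower with wild-type BioNICD. Of the 20, Pole lost its 4-OHT call in 9 of 16 alternative settings, Gins2 in 8, Mcm10 in 7, Cdt1 in 6 and Rpa2 in 5. Slbp lost its BioNICD call in 9 of 16 and Rfc3 in 7, and the other calls of the 20 were lost in at most 4. The difference between the effects (NICD-ER minus BioNICD) was tested in the same model. It called 28 genes higher and 2 lower, 81.1% of the 37, against 51.5% of all genes tested (26.4% higher and 25.1% lower). Ccne2 differed by 1.49 ± 0.09, Rrm2 by 0.92 ± 0.05, Cdc6 by 0.77 ± 0.08 and Hells by 0.70 ± 0.06 (SE; edgeR adjusted p = 8.2e-12, 2.0e-12, 1.9e-08 and 4.3e-09). All 8 licensing genes were called in this direction. Tyms (-0.25) and Chaf1b (-0.32) differed in the other direction, with the larger rise in BioNICD. For E2f1, E2f2 and Ccne1 the difference did not pass, nor for Ung, Rfc2, Gins1 and Gins3. The 2 comparisons share no samples, but NICD-ER and BioNICD lines differ in construct, selection and the kind of control, so construct and duration of NICD exposure cannot be told apart.

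**Figure D5:**
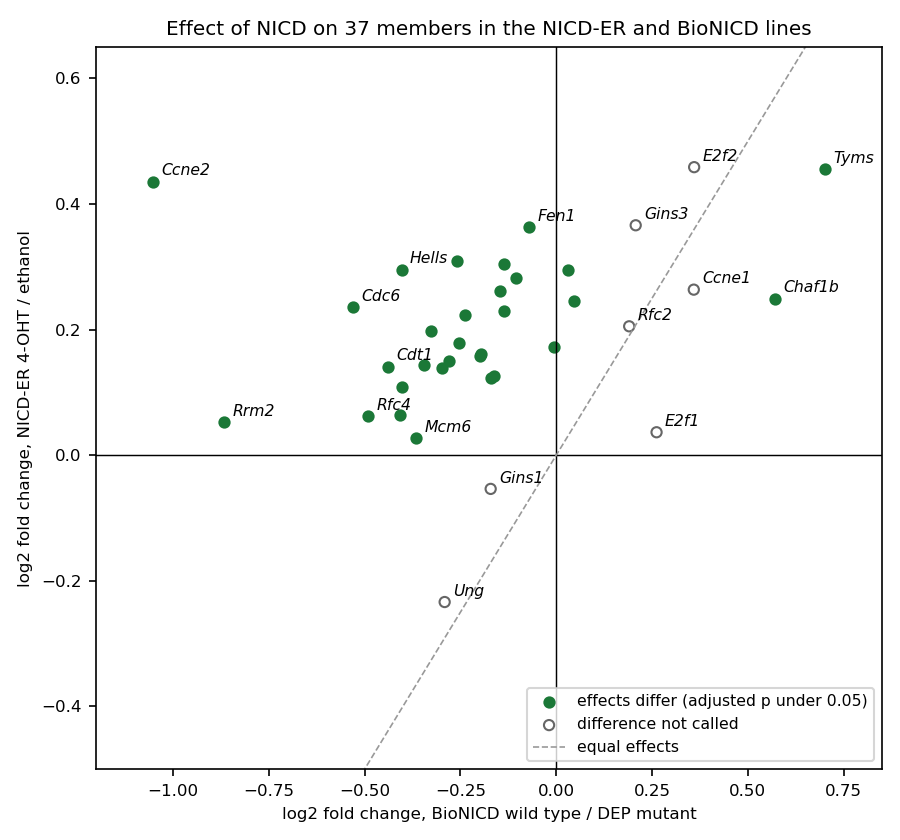
Log2 fold change with 4-OHT against ethanol in NICD-ER cells (y axis) and with wild-type BioNICD against DEP (x axis) for the 37 genes. Green points differ between the 2 effects by edgeR's test, open points do not, and most green points lie above 0 on the y axis and below 0 on the x axis, with Ccne2 farthest to the left at -1.05.

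Every one of the 37 genes was called in at least 1 of the 3 comparisons, and 16 (43.2%) were called in all 3. Of the 10657 genes tested in all 3, 90.2% were called in at least 1 and 22.2% in all 3. Of the 16, 9 were lower with the guides, higher with 4-OHT and lower with wild-type BioNICD, which are Mcm3, Mcm7, Cdc6, Cdc45, Pole, Pcna, Rfc3, Rrm1 and Chaf1a. Of these 9, Chaf1a lost its H2A.Z call in 14 of 25 alternative settings, Pole its 4-OHT call in 9 of 16 and Rfc3 its BioNICD call in 7 of 16. Mcm7, Pole and Rfc3 are on chromosome 5 and stood at -0.08, -0.11 and -0.33 in the H2A.Z comparison relative to its median. Cdt1, Slbp and Mcm5 were higher, higher and lower, and Tyms and Rfc2 were lower, higher and higher. Ccne1 was higher and Ung lower in all 3. How many of all genes show each of these patterns was not counted.

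Read by promoter, 11 of the 12 genes with an E2F match were called higher with 4-OHT and 0 lower, against 13 higher and 1 lower of the 18 genes with a window and no match. With wild-type BioNICD, 10 of the 12 were called lower and 1 higher, against 11 lower and 4 higher of the 18. With the H2A.Z guides, 4 of the 12 were called lower and 3 higher, against 10 lower and 3 higher of the 18.

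Counting did not use strand, and 4 of the genes overlap exons of neighbours, so their values are uncertain by the reads of the overlap. Ccne2 shares 1734 bases of exon with Ints8, Rfc4 160 bases with Eif4a2, Gins2 118 bases with Gse1 and Lig1 116 bases with 6330408A02Rik. Tyms has a pseudogene row, Tyms-ps, which could take some of its reads.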

How the data were processed

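The deposited values are raw read counts per gene, 1 column for each of the 20 samples, made by the authors with featureCounts 1.5.0 over exons of a UCSC mm9 annotation, per the file headers, with no strand option. Per the labels, stranded libraries were made from RNA after removal of ribosomal RNA. The submitters' processing notes also name FastQC, Trimmomatic, STAR and DESeq2, with versions not given in the sources used here. Without a strand setting, reads from overlapping genes on either strand cannot be assigned to 1 of them.

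Counts were tested as deposited with edgeR 4.0.16 in R 4.3.3 (TMM scaling, filterByExpr, quasi-likelihood test, two-sided, Benjamini-Hochberg adjustment over all genes tested, called at an adjusted p under 0.05). For the H2A.Z effect, submission set was a covariate over the 12 CRISPR samples, and both NICD comparisons used 1 model of the 8 NICD samples. The SE is the log2 fold change divided by the square root of its F statistic. CPM values are counts scaled with TMM factors over all 20 samples. Counting intervals cover counting error only. The script was tested on simulated data. Alternatives were RLE and upper quartile scaling, no filter, DESeq2 1.42.0, glmTreat against a fold of 1.2, other choices of samples, and leaving out each replicate.

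The 37 genes and all gene lists were chosen with earlier results of these data known. Named with a fold change were all called genes where 24 or fewer were called, otherwise the 12 with the largest change in each direction. Values by sample are given for the 6 with the largest change in each comparison, for the 6 with the largest summed change among those called in all 3, and for E2f1, Ccne1, Ccne2, Cdc6, Mcm2 and Pcna. Further genes were named after their values were seen. No replicate pair agreed within sampling noise, with a mean chi-square per gene of at least 2.66, so none was counted as 1 sample. A value above sampling noise does not show that samples are independent. In set 2, guide replicates 3 and 4, guide replicates 5 and 6, and control replicates 3 to 5 formed close clusters, at 2.75 to 4.43. The tests treat all 12 CRISPR samples as independent, so their p-values may be too small. Gene coordinates of the printed sequences are those of RefSeq's GRCm38 table, and no coordinates of mm9 were combined with them.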

Additional observations from a re-analysis of the deposited data

Results flagged for a closer look

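In 4 of the 74 gene and group combinations with 6 samples, 1 sample lay farther from the others than Dixon's test at the 95% level allows (a gap of more than 0.625 of the range), and chance gives about 1 in 20. Gins2 stood at 22.3 CPM in control replicate 1, Rpa2 at 59.7 CPM in guide replicate 2, Ccne1 at 38.9 CPM in control replicate 5 and Ccne2 at 23.2 CPM in guide replicate 1, each the lowest of its group. Control replicate 1 and guide replicate 1 are also the 2 samples with counts of collagen genes. The part of those counts in these values was not tested.

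The effect of 4-OHT in NICD-ER cells and that of wild-type against DEP BioNICD differed for 30 of the 37 genes by edgeR's test of the difference. On the log2 scale, NICD-ER minus BioNICD, the licensing and helicase activation genes were Mcm2 (0.18), Mcm3 (0.36), Mcm4 (0.26), Mcm5 (0.36), Mcm6 (0.39), Mcm7 (0.49), Cdc6 (0.77), Cdt1 (0.58), Mcm10 (0.29), Cdc45 (0.57) and Gins2 (0.43). Fork genes were Pola1 (0.44), Pole (0.51), Prim1 (0.20), Pcna (0.36), Rfc3 (0.44), Rfc4 (0.55), Rpa2 (0.43), Fen1 (0.43), Lig1 (0.29) and Tipin (0.52). Nucleotide, chromatin and cyclin genes were Rrm1 (0.46), Rrm2 (0.92), Dut (0.47), Chaf1a (0.41), Slbp (0.39), Hells (0.70) and Ccne2 (1.49). The difference was below 0 for Tyms (-0.25) and Chaf1b (-0.32).

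The effect of the H2A.Z guides differed between submission sets for 15 genes. On the log2 scale, set 2 minus set 1, the differences were Mcm2 (0.37), Mcm4 (0.28), Mcm5 (0.38), Mcm6 (0.34), Mcm7 (0.22), Mcm10 (0.26), Gins1 (0.47), Pola1 (0.48), Pole (0.26), Prim1 (0.55), Tipin (0.37), Tyms (0.48), Ung (0.81) and Chaf1b (0.67), and E2f2 differed by -0.25. Guide replicates 1 and 2, the guide samples of set 1, differed from each other by a mean chi-square per gene of 30.2, against 5.59 between control replicates 1 and 2. In set 2 it was 2.75 between guide replicates 3 and 4 and 3.23 between 5 and 6, but 39.0 to 53.6 between these pairs. Control replicates 3 to 5 differed from each other by 2.99 to 4.43, and control replicate 6 differed from them by 34.0 to 37.1.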

How the results depend on the processing

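The count of the 37 genes called kept within 1.5 times the reported one in 80 of 91 alternative settings over the 5 comparisons. With glmTreat, which asks for a change beyond 1.2-fold, 13 were called in the H2A.Z comparison (24 as reported, 35.1% against 34.5% of all genes). With 4-OHT 4 were called (31 as reported, 10.8% against 9.61%), and in BioNICD 14 (31 as reported, 37.8% against 37.9%). For the difference between sets 2 were called (15 as reported, 5.41% against 3.37%), and for that between NICD effects 21 (30 as reported, 56.8% against 27.5%). Beyond that fold the total shares in the 3 comparisons were thus near those of all genes, while the directions were less even. The 37 gave 2 higher and 11 lower in the H2A.Z comparison, against 1955 and 1728 of all genes. With 4-OHT they gave 4 and 0, against 703 and 498, and in BioNICD 4 and 10, against 2623 and 2110. In 1 model of all 20 samples, which had no term for submission set, 1 was called with 4-OHT (2.70%, against 7.34% of all genes) and 13 in BioNICD (35.1%, against 39.0%). The H2A.Z comparison called 14 with no set covariate (37.8%, against 52.9% of all genes) and 15 in set 1 alone, and the difference between sets called 5 without the 3 samples highest in Rn45s. Leaving out each sample in turn gave 22 to 26 in the H2A.Z comparison, 21 to 31 with 4-OHT, 27 to 31 in BioNICD, 28 to 31 for the difference between NICD effects and 9 to 24 for the difference between sets, and no called gene was called with the opposite sign. Against ethanol, 7 calls were lost without ethanol replicate 1 and 10 without 4-OHT replicate 2, among them Tipin at 0.13. Relative to the chromosome median, Mcm5 (-0.28), Gins3 (-0.15) and Tyms (0.042) changed sign, and Mcm5 stood at -0.033 in set 1 alone (edgeR adjusted p = 0.86). In the difference between sets Mcm2 stood at 0.22 without guide replicate 2. The causes were not tested. Leaving out guide replicate 1 and control replicate 1 together was chosen after seeing the data.

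Replicate numbers did not pair the samples in set 2, NICD-ER or BioNICD, but went with pairs in set 1. Same-numbered samples correlated at 0.383 in set 1, -0.01 to 0.066 in set 2, 0.067 in NICD-ER and -0.015 in BioNICD. These are correlations of deviations from the group mean, which are exact opposites where a group has 2 samples. The value of -0.383 for differently numbered samples of set 1 is thus fixed by that of 0.383 and adds no evidence. Guide replicate 1 and control replicate 1 are the samples that hold the fibroblast genes. With a replicate block, 23 genes were called in the H2A.Z comparison (Dut lost), 31 with 4-OHT, 32 in BioNICD and 31 for the difference between NICD effects.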
